A study of Mus musculus with 14 samples.

Results

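The genes described here are 10 that remodel the extracellular matrix of the liver: the matrix metalloproteinases *Mmp2*, *Mmp13*, *Mmp14* and *Mmp19*, the tissue inhibitors *Timp1*, *Timp2* and *Timp3*, and the lysyl oxidases *Lox*, *Loxl1* and *Loxl2*. They were found by symbol, and each matched 1 row of the 25212 genes in the table of read counts. Liver RNA came from 14 male C57BL/6 mice with obesity induced by a high fat diet (HFD), with 1 library per liver. The 5 DIO mice had no surgery, in the 4 GB-IL mice the gallbladder had been joined to the ileum, and the 5 RYGB mice had Roux-en-Y gastric bypass. The labels date the livers to 8 weeks. All 3 groups share the strain, the sex and the diet, and no liver of a sham operation was among those sequenced, so an effect of the operation as such and of the diversion cannot be told apart. The total count per liver was 18440676 to 21473005 reads in DIO, 19231679 to 26131278 reads in GB-IL and 18223135 to 28656631 reads in RYGB. The labels name 2 TruSeq kits without tying either to a liver, whereas the methods of the authors describe a single protocol with amplification of the RNA, so which kit each liver had is not known.

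Matrix metalloproteinases are zinc-dependent enzymes that are made as inactive precursors and, once activated, cleave collagens and other matrix proteins. The TIMP proteins bind their active sites and block them, and the lysyl oxidases oxidise lysine residues of collagen and elastin, which then form covalent cross-links that make the fibres stiffer and harder to digest. In the liver these genes are known mainly from stellate cells, portal fibroblasts and macrophages, and from the build-up and resorption of scar tissue in fibrosis.

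Levels are given as CPM after TMM scaling of the library sizes. Differences, given as log2 fold changes with their standard errors (SE), were tested by the quasi-likelihood test of edgeR, Benjamini-Hochberg adjusted, over 14252 genes, with 1 mean per group fitted to the 14 livers together, at a false discovery rate (FDR) of 0.05. Of the 10 genes, 8 passed the filter on low counts, which asks for about 0.492 CPM, before TMM scaling, in at least 4 livers. *Timp1* reached that level in 3 livers, all GB-IL, and *Mmp13* in 2. *Mmp13* in GB-IL liver 1 fell short of it before scaling, though it had 0.525 CPM after scaling. *Timp1* and *Mmp13* were compared by exact permutation tests. *Lox* passed through 3 GB-IL and 2 RYGB livers and no DIO liver, and thus through the groups where it was higher.

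GB-IL liver 1 carried RNA typical of other tissues. The 5 skeletal muscle markers, with *Acta1* highest in GB-IL liver 1, summed to 1123, 3.05, 0.891 and 0.701 CPM in GB-IL livers 1 to 4, to 0.837, 0.541, 1.07, 1.13 and 2.40 CPM in the DIO livers and to 0.766, 0.740, 0.986, 0.662 and 1.21 CPM in the RYGB livers. Outside GB-IL liver 1 the muscle genes *Ckm* and *Myh4* had 0 counts in 9 and 12 livers. The 4 keratins of squamous epithelium, led by *Krt4*, summed to 414, 34.1, 0.848 and 0.258 CPM in GB-IL livers 1 to 4, 0.157, 0.0984, 0.153, 0 and 0.144 CPM in DIO and 0, 0.148, 0.106, 0.124 and 0.208 CPM in RYGB, and *Krt5* had 0 counts in 11 livers. The 5 markers of pancreatic acinar cells summed to 480.4, 8.98, 8.23 and 13.4 CPM in GB-IL, 17.0, 19.5, 14.2, 38.1 and 27.9 CPM in DIO and 9.51, 12.8, 23.1, 21.9 and 5.99 CPM in RYGB, with *Pnlip* at 0 counts in 10 livers. In GB-IL liver 1 the highest of these was *Prss2* (142 CPM), while *Cela1*, highest over the 14 livers, was present in every liver (50.5 CPM in GB-IL liver 1). GB-IL liver 2 also exceeded the other 12 livers in squamous keratins. The 4 adipocyte markers, with *Cfd* highest in mean CPM, summed to 1.21, 0.169, 1.10 and 15.4 CPM in GB-IL livers 1 to 4. Their sum was 0.344 to 7.38 CPM in DIO and 0 to 1.55 CPM in RYGB. Only GB-IL liver 4 had counts of all 4, with *Cfd* at 11.5 CPM. Over all genes tested, GB-IL livers 1 and 2 both lay apart from the other 12 on the first principal component of log2 CPM, and GB-IL liver 4 lay among the DIO livers. What part this had in the differences below, or RNA of these tissues in the values of GB-IL livers 1 and 4, was not tested. The 4 genes that passed the FDR in GB-IL are therefore also given without GB-IL liver 1.

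Compared with DIO, GB-IL had 4 of the 8 tested genes higher past the FDR and 0 lower: *Mmp2* and *Mmp14* among the proteases, the inhibitor *Timp2* and the cross-linking enzyme *Lox*. Of all genes tested, 449 (3.15%) were higher past the FDR. At an unadjusted p below 0.05, 5 of the 8 were higher, against 16.7% of all genes tested. The median log2 fold change was 1.24 for the 8 genes and 0.04 for all genes tested. *Lox*, which passed the filter on low counts through operated livers only, is among the 4, the 5 and the genes of this median. These values thus hold a gene let through by the groups where it was higher. Every GB-IL liver lay above every DIO liver for 2 of the 8, *Mmp2* and *Timp2*, as for 2.67% of all genes tested. These calls were close to the threshold. In this comparison the same test called 0 genes of any kind, the 4 included, on omission of GB-IL liver 1, of GB-IL liver 2, or of DIO liver 1, 2, 3, 4 or 5, whereas it called 6 of the genes described here without GB-IL liver 4, *Timp1* and *Loxl1* being the added ones, in a fit that called 2228 of 14492 genes higher. The fit of GB-IL and DIO without the RYGB livers called 0 of 13792 genes, and that with replicate number as a block 1 gene, which was not among the 10. In bulk liver, fewer cells of a type and less RNA per cell cannot be told apart, nor can more cells and more RNA per cell.

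**Figure D1:**
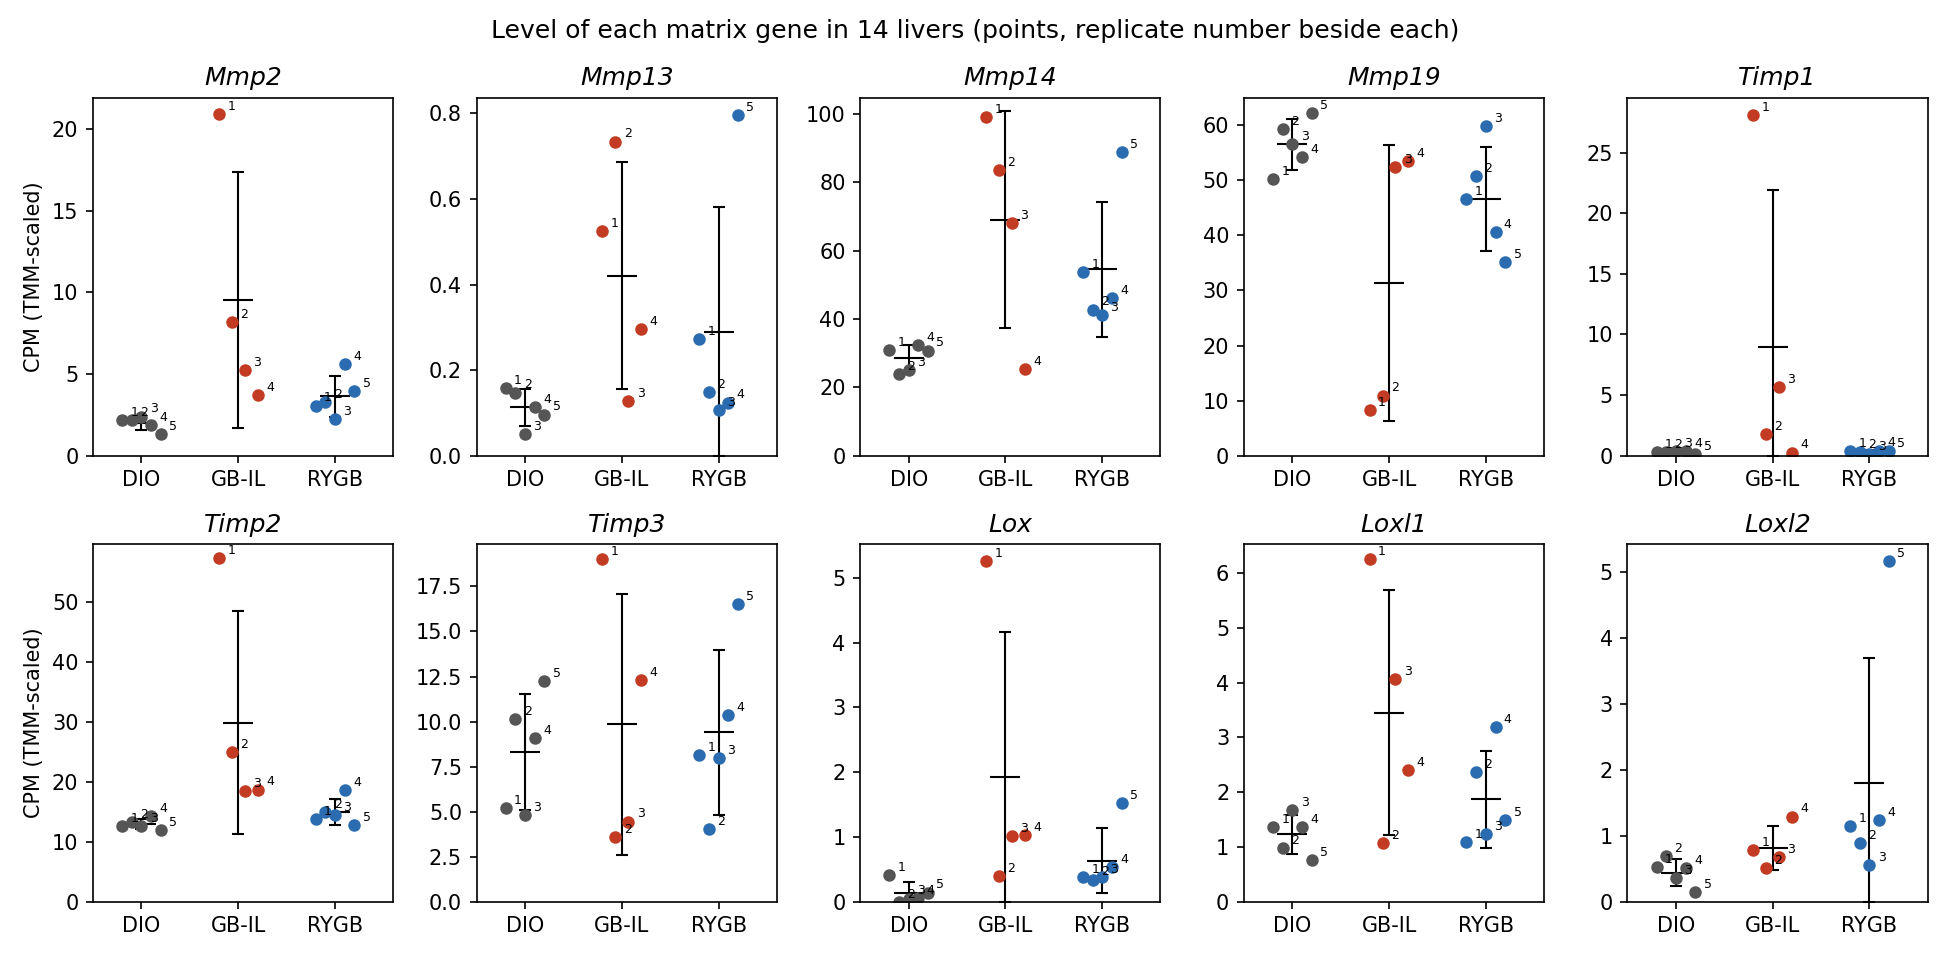
Level of each of the 10 genes in CPM (vertical axis, linear and with its own scale in each panel) in DIO, GB-IL and RYGB livers, with 1 point per liver, replicate numbers, and the mean of the group with whiskers of 1 SD, drawn no lower than 0. GB-IL liver 1 is the highest of its group for *Mmp2*, *Mmp14*, *Timp1*, *Timp2*, *Timp3*, *Lox* and *Loxl1*, and RYGB liver 5 is the highest of its group for *Mmp13*, *Mmp14*, *Timp3*, *Lox* and *Loxl2*.

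*Mmp14* (ENSMUSG00000000957, chromosome 14, 54431612 to 54445364), which encodes the membrane-anchored collagenase MT1-MMP that also activates pro-MMP2, measured 30.9, 24.0, 25.0, 32.4 and 30.8 CPM in DIO livers 1 to 5. The GB-IL livers had 99.2, 83.6, 68.1 and 25.4 CPM in the order 1 to 4, and the RYGB livers 53.8, 42.8, 41.3, 46.3 and 89.0 CPM in the order 1 to 5. GB-IL livers 1, 2 and 3 exceeded every DIO liver, GB-IL liver 4 lay inside the DIO range, and all 5 RYGB livers exceeded every DIO liver. The DIO mean was 28.6 ± 3.85 CPM (SD, n = 5), that of GB-IL 69.1 ± 31.8 CPM (SD, n = 4) and that of RYGB 54.6 ± 19.8 CPM (SD, n = 5). In log2 terms GB-IL exceeded DIO by 1.27 (SE 0.32, adjusted p = 0.0437 by the quasi-likelihood test of edgeR, Benjamini-Hochberg adjusted). Omission of GB-IL liver 1, of GB-IL liver 2 or of a single DIO liver (1 to 5) put the adjusted p at 0.0857 to 0.153. The call was also lost without GB-IL liver 3 (0.0575) and without RYGB liver 1, 2, 3 or 4 (0.0579, 0.0577, 0.0558 and 0.0592), and without GB-IL liver 1 the log2 fold change was 1.04. For the difference of *Mmp14* in GB-IL from DIO, the adjusted p of all alternatives spanned 0.00105 to 0.153.

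In RYGB the log2 fold change of *Mmp14* was 0.93 (SE 0.30, adjusted p = 0.446 by the quasi-likelihood test of edgeR, Benjamini-Hochberg adjusted). It missed the FDR although the 2 groups of livers did not overlap (p = 0.00794 by an exact permutation test, the lowest possible for groups of 5). Without RYGB liver 5, the highest of its group, the log2 fold change was 0.69. GB-IL and RYGB differed by 0.34 on the log2 scale (SE 0.32, adjusted p = 0.518 by the edgeR test, Benjamini-Hochberg adjusted), and by 0.10 to 0.61 over the omissions of 1 liver (adjusted p 0.0780 to 0.875).

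*Mmp2* (ENSMUSG00000031740, chromosome 8, 92827291 to 92853420) encodes gelatinase A, which digests denatured collagen and the type IV collagen of basement membranes. Its DIO livers held 2.20, 2.17, 2.39, 1.87 and 1.35 CPM. The GB-IL livers held 20.9, 8.19, 5.26 and 3.69 CPM and the RYGB livers 3.06, 3.26, 2.25, 5.63 and 3.95 CPM. All 4 GB-IL livers and 4 of 5 RYGB livers lay above the highest DIO liver, and RYGB liver 3 lay within the DIO range. In GB-IL the fit over all livers gave a log2 fold change of 2.25 (SE 0.43, adjusted p = 0.0278 by the quasi-likelihood test of edgeR, Benjamini-Hochberg adjusted). This was 1.51 without GB-IL liver 1, where the adjusted p was 0.0621, and the adjusted p was 0.0581 to 0.0942 over the omissions of GB-IL liver 1, of GB-IL liver 2 and of each DIO liver (1 to 5). In RYGB the log2 fold change was 0.86 (adjusted p = 0.577 by the edgeR test, Benjamini-Hochberg adjusted), and GB-IL exceeded RYGB by 1.39 (SE 0.42, adjusted p = 0.114, 0.0132 without GB-IL liver 4), or by 0.64 without GB-IL liver 1. For the difference of *Mmp2* in GB-IL from DIO, the adjusted p of all alternatives spanned 1.15e-04 to 0.0942. For the difference of *Mmp2* in GB-IL from RYGB, the adjusted p of all alternatives spanned 0.0132 to 0.347. *Mmp2* and *Timp2* were among the genes that the authors printed for livers of the same study, so their rise here is not independent evidence.

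*Mmp19*, a secreted protease of basement membrane and other matrix proteins, had the highest level per length of the 10 genes in DIO. Its levels were 50.3, 59.3, 56.6, 54.3 and 62.2 CPM in DIO and 8.30, 10.9, 52.4 and 53.6 CPM in GB-IL livers 1 to 4. The RYGB livers had 46.6, 50.8, 59.8, 40.6 and 35.1 CPM. GB-IL livers 1 and 2 were far below all other livers, whereas GB-IL livers 3 and 4 lay in the DIO range, and RYGB livers 1, 4 and 5 lay below every DIO liver. Neither difference passed the FDR. It changed by -0.85 on the log2 scale in GB-IL (SE 0.44, adjusted p = 0.256 by the quasi-likelihood test of edgeR, Benjamini-Hochberg adjusted) and -0.28 in RYGB (SE 0.41, adjusted p = 0.880). Over the omissions of 1 liver the change in GB-IL ran from -1.24 (without GB-IL liver 4) to -0.55 (without GB-IL liver 1). On the opposite strand *Tmem198b* shares 789 exonic bases with *Mmp19*, and since the strand setting of the counting is not given in the sources used here, reads from that stretch could not be told apart.

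*Mmp13*, the main interstitial collagenase of the mouse, was near the limit of detection. Its counts summed to 11 over the 5 DIO livers, 34 over the 4 GB-IL livers and 37 over the 5 RYGB livers, of which 23 were in RYGB liver 5. GB-IL livers 1, 2 and 4 had 0.525, 0.734 and 0.295 CPM, above the highest DIO liver at 0.157 CPM, and GB-IL liver 3 had 0.127 CPM. The difference in mean CPM between GB-IL and DIO had an exact two-sided permutation p of 0.0476, unadjusted, with 3 of 4 GB-IL livers above all DIO livers. It was not below 0.05 without GB-IL liver 1, 2 or 4 (0.107 each) or without any DIO liver (0.0571 without DIO liver 1 or 2 and 0.0857 without DIO liver 3, 4 or 5). With no filter on low counts the edgeR test put *Mmp13* in GB-IL 1.80 above DIO on the log2 scale (Benjamini-Hochberg adjusted p = 0.180), and DESeq2 did not call it either (adjusted p = 0.138). For RYGB against DIO the exact two-sided permutation p was 0.143.

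Among the inhibitors, *Timp1*, which blocks most secreted metalloproteinases and is a well-known gene of liver fibrosis, had the widest relative spread in GB-IL. Its SD there was 145% of the mean, while in DIO and RYGB *Timp3* had the wider relative spread. *Timp1* measured 0.262, 0.295, 0.407, 0.396 and 0.144 CPM in DIO (3 to 8 counts per liver). The GB-IL livers had 28.1, 1.75, 5.64 and 0.258 CPM, from 535, 31, 133 and 7 counts, and the RYGB livers 0.383, 0.296, 0.141, 0.414 and 0.381 CPM. GB-IL livers 1, 2 and 3 were above all 10 DIO and RYGB livers, and GB-IL liver 4 lay within the DIO range. The GB-IL mean of 8.94 ± 12.98 CPM (SD, n = 4) against 0.301 ± 0.108 CPM (SD, n = 5) was not significant in the exact two-sided permutation test (p = 0.0794), and that p was 0.0357 without GB-IL liver 4. Without GB-IL liver 1 the mean difference from DIO was 2.25 CPM (exact permutation p = 0.179). With no filter on low counts, the quasi-likelihood test of edgeR, Benjamini-Hochberg adjusted, put *Timp1* in GB-IL 4.83 above DIO on the log2 scale (adjusted p = 0.0230) and 4.72 above RYGB (adjusted p = 0.0429). Over the alternatives that tested it against DIO (DESeq2, no filter, a mean of at least 50 counts and the fit without GB-IL liver 4), the adjusted p ran from 3.91e-06 to 0.0278. Against RYGB 3 of 5 such alternatives called it, at adjusted p from 6.44e-06 to 0.269, the highest being the fit without the DIO livers. All of these fits hold the 535 counts of GB-IL liver 1. The filter at a mean of 50 counts let *Timp1* through on the counts of GB-IL, where it is high, and without GB-IL liver 4 it was tested because fewer livers have to reach the level. No edgeR fit without GB-IL liver 1 tested it. RYGB and DIO did not differ detectably in *Timp1* (exact two-sided permutation p = 0.786).

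*Timp2* (ENSMUSG00000017466, chromosome 11, 118301069 to 118355740), an inhibitor that also takes part in the activation of pro-MMP2 by MT1-MMP at the cell surface, was the steadiest of the 10 genes in DIO, with 12.7, 13.4, 12.6, 14.3 and 11.9 CPM. GB-IL livers 1 to 4 had 57.4, 25.0, 18.5 and 18.7 CPM and the RYGB livers 13.8, 14.9, 14.5, 18.6 and 12.9 CPM. All GB-IL livers lay above all DIO livers, with GB-IL liver 1 far above the other 3, and RYGB livers 2, 3 and 4 lay above every DIO liver while 1 and 5 did not. In GB-IL the log2 fold change reached 1.20 (SE 0.28, adjusted p = 0.0343 by the quasi-likelihood test of edgeR, Benjamini-Hochberg adjusted), and 0.67 without GB-IL liver 1. The adjusted p was 0.0647 to 0.101 over the omissions of GB-IL liver 1, of GB-IL liver 2 and of each DIO liver (1 to 5), 0.0508 without RYGB liver 2 and 0.05001 without RYGB liver 3. In RYGB the log2 fold change was 0.20 (SE 0.27, adjusted p = 0.866 by the edgeR test, Benjamini-Hochberg adjusted). GB-IL exceeded RYGB by 1.00 (SE 0.28, adjusted p = 0.0998, and 0.0135 without GB-IL liver 4), with 3 of 4 GB-IL livers above every RYGB liver, and by 0.46 without GB-IL liver 1 (adjusted p = 0.226). For the difference of *Timp2* in GB-IL from DIO, the adjusted p of all alternatives spanned 0.00452 to 0.123. For the difference of *Timp2* in GB-IL from RYGB, the adjusted p of all alternatives spanned 0.0135 to 0.290.

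*Timp3*, the inhibitor that stays bound to the matrix, showed no direction that held over the livers. DIO spanned 4.83 to 12.3 CPM, GB-IL 3.61 to 19.0 CPM and RYGB 4.04 to 16.5 CPM. On the log2 scale the change was 0.24 in GB-IL (SE 0.48, adjusted p = 0.766 by the quasi-likelihood test of edgeR, Benjamini-Hochberg adjusted) and 0.18 in RYGB (SE 0.46, adjusted p = 0.933), and it turned negative without GB-IL liver 1 (-0.29) and without RYGB liver 5 (-0.11), respectively. *Syn3*, on the opposite strand, shares 1733 exonic bases with *Timp3* and had 4 to 38 counts per liver.

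*Lox* (ENSMUSG00000024529, chromosome 18, 52516067 to 52529867), the lysyl oxidase that starts the cross-linking of collagen and elastin, was almost silent in DIO, with 8, 0, 1, 1 and 3 counts in livers 1 to 5, or 0.419, 0, 0.0509, 0.0566 and 0.144 CPM. The GB-IL livers had 5.25, 0.395, 1.02 and 1.03 CPM and the RYGB livers 0.383, 0.345, 0.387, 0.538 and 1.52 CPM. GB-IL livers 1, 3 and 4 and RYGB livers 4 and 5 lay above every DIO liver, and the other operated livers lay just below DIO liver 1. The mean change of *Lox* on the log2 scale was 3.79 in GB-IL (SE 0.87, adjusted p = 0.0340 by the quasi-likelihood test of edgeR, Benjamini-Hochberg adjusted) and 2.23 in RYGB (SE 0.87, adjusted p = 0.515). Without GB-IL liver 1, which held 100 of the 159 counts of its group, the log2 fold change was 2.57, and the adjusted p was 0.0581 to 0.129 over the omissions of GB-IL liver 1, of GB-IL liver 2 and of each DIO liver (1 to 5). The fold rests on 13 counts in DIO, and without DIO liver 1, which held 8 of them, it was 4.79 in GB-IL and 3.24 in RYGB. Without RYGB liver 5 it was 1.60 in RYGB. GB-IL and RYGB differed by 1.56 (SE 0.74, adjusted p = 0.230 by the edgeR test, Benjamini-Hochberg adjusted), by 0.33 without GB-IL liver 1 and by 2.19 without RYGB liver 5. For the difference of *Lox* in GB-IL from DIO, the adjusted p spanned 9.16e-04 to 0.129 over 21 alternatives. With a filter at a mean of 50 counts and in the fit without the RYGB livers it was not tested.

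*Loxl1*, the family member linked to elastic fibres, measured 1.36, 0.984, 1.68, 1.36 and 0.769 CPM in DIO. GB-IL livers 1 to 4 had 6.25, 1.07, 4.07 and 2.40 CPM and RYGB livers 1 to 5 1.09, 2.37, 1.23, 3.19 and 1.49 CPM. GB-IL livers 1, 3 and 4 were above every DIO liver and GB-IL liver 2 was not, and the log2 fold change of 1.48 missed the FDR (SE 0.45, adjusted p = 0.0828 by the quasi-likelihood test of edgeR, Benjamini-Hochberg adjusted; 0.0273 without GB-IL liver 4, and 0.0273 to 0.293 over all alternatives). *Loxl2*, which acts on the type IV collagen of basement membranes, had 0.523, 0.689, 0.356, 0.509 and 0.144 CPM in DIO, 0.788, 0.508, 0.679 and 1.29 CPM in GB-IL and 1.15, 0.888, 0.563, 1.24 and 5.16 CPM in RYGB. RYGB liver 5 stood far above the rest, and RYGB livers 1, 2 and 4 also exceeded every DIO liver. The log2 fold change of *Loxl2* was 0.89 in GB-IL (adjusted p = 0.381, and 0.56 without GB-IL liver 4) and 2.02 in RYGB (SE 0.59, adjusted p = 0.383 by the edgeR test, Benjamini-Hochberg adjusted), and the latter was 1.11 without RYGB liver 5.

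Between RYGB and DIO the test called 0 of the 8 genes and 0 (0%) of all genes tested. At an unadjusted p below 0.05, 3 of the 8 (*Mmp14*, *Lox* and *Loxl2*) were higher in RYGB and 0 lower, against 5.35% of all genes tested higher. DESeq2 called 0 of these genes, with 94 of 24335 genes called in all. Voom of limma, weighting livers by quality, called 4 (*Mmp2*, *Mmp14*, *Lox* and *Loxl2*), and 1690 of 14252 genes in all. *Mmp14* was the only 1 of the 8 with every RYGB liver above every DIO liver, as were 1.87% of all genes tested. The median log2 fold change of the 8 was 0.73 in RYGB, and 0.01 for all genes tested. *Lox*, let through the filter on low counts by operated livers only, is among the 3 and the genes of this median. Since GB-IL and RYGB were set against the same 5 DIO livers, the 2 comparisons are not independent. Between GB-IL and RYGB the test called 0 of the 8 and 0 (0%) of all genes, with 2 of the 8 (*Mmp2* and *Timp2*) higher in GB-IL at an unadjusted p below 0.05, against 15.3% of all genes. Of the 10 genes DESeq2 there called 3 (*Mmp2*, *Timp1* and *Timp2*) among 884 of 24335 genes, voom 0 among 115, and the quasi-likelihood test without GB-IL liver 4 the same 3 among 3120 of 14492.

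**Figure D2:**
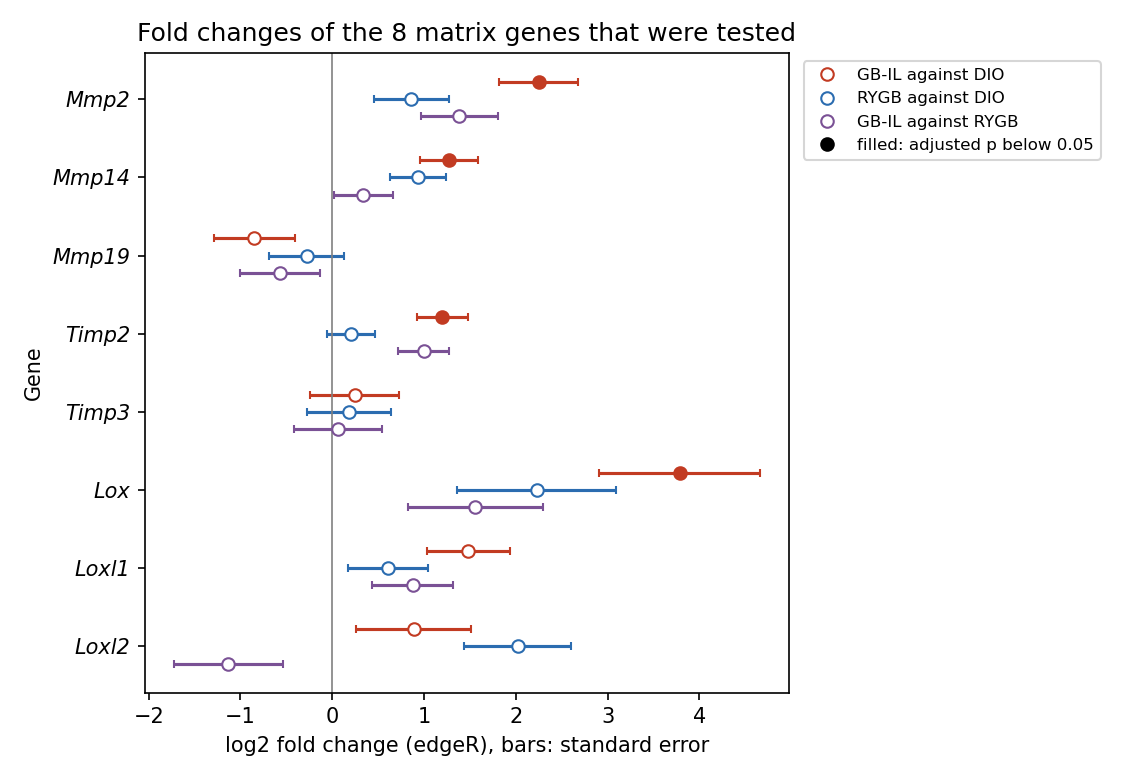
Log2 fold change (horizontal axis) of the 8 tested genes in the 3 comparisons, with bars of 1 standard error from edgeR's quasi-likelihood fit. Filled points have an adjusted p below 0.05, and these are *Mmp2*, *Mmp14*, *Timp2* and *Lox* in GB-IL against DIO, at 2.25, 1.27, 1.20 and 3.79.

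Levels of different genes were compared as CPM per kb of exons. In DIO *Mmp19* stood first at 16.0 ± 1.29 (SD, n = 5), followed by *Mmp14* at 4.80 ± 0.646 (SD, n = 5), *Timp2* at 3.33 ± 0.232 (SD, n = 5) and *Timp3* at 1.02 ± 0.395 (SD, n = 5), and the ranges of these 4 did not overlap from 1 to the next. *Mmp2* at 0.591, *Loxl1* at 0.373 and *Timp1* at 0.339 CPM per kb followed with overlapping ranges. *Loxl2*, *Mmp13* and *Lox* came last at 0.0822, 0.0423 and 0.0281, with overlap between neighbours. In GB-IL the order was *Mmp14* at 11.6 ± 5.33 (SD, n = 4), *Timp1* at 10.1 ± 14.6 (SD, n = 4), *Mmp19* at 8.86 ± 7.10 (SD, n = 4) and *Timp2* at 7.67 ± 4.76 (SD, n = 4), but every pair of neighbours overlapped. In RYGB *Mmp19* at 13.2 ± 2.69 (SD, n = 5) and *Mmp14* at 9.16 ± 3.32 (SD, n = 5) overlapped and both lay above *Timp2* at 3.84 ± 0.563 (SD, n = 5) without overlap. With the longest transcript as the length, *Mmp14* came before *Mmp19* in RYGB and the order in DIO and GB-IL was the same.

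Per length of all exons, the 4 proteases summed to 21.4 ± 1.12 CPM per kb (SD, n = 5) in DIO, 23.4 ± 3.85 (SD, n = 4) in GB-IL and 23.5 ± 2.03 (SD, n = 5) in RYGB. Per length of the longest transcript, the sums were 26.1, 33.8 and 31.8 CPM per kb in the same order. *Mmp19* made up 70.7, 78.1, 76.5, 71.8 and 75.9% of the sum in DIO livers 1 to 5. In GB-IL livers 1 to 4 its share was 9.25, 15.6, 53.2 and 73.5%, and in the RYGB livers 56.8, 63.7, 68.9, 54.8 and 37.7%. *Mmp14* made up most of the remainder and exceeded *Mmp19* per length of all exons in GB-IL livers 1 and 2 and RYGB liver 5, and per length of the longest transcript also in GB-IL liver 3 (ratio 1.37) and RYGB livers 1 and 4 (1.21 and 1.20). The 3 inhibitors together had 4.69 ± 0.450 CPM per kb (SD, n = 5) in DIO, 18.9 ± 19.9 (SD, n = 4) in GB-IL and 5.36 ± 0.771 (SD, n = 5) in RYGB. Without GB-IL liver 1 the GB-IL mean of the inhibitors was 9.03 and that of *Timp1* alone 2.87 CPM per kb. The ratio of summed inhibitors to summed proteases was 1.92, 0.445, 0.418 and 0.320 in GB-IL livers 1 to 4, all above the DIO range of 0.204 to 0.245, and 0.198 to 0.311 in RYGB. *Timp1* supplied 65.0, 22.3, 54.5 and 4.40% of the inhibitor sum in GB-IL livers 1 to 4 and at most 10.7% in any DIO liver. These sums describe RNA of the listed genes only and were not tested.

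**Figure D3:**
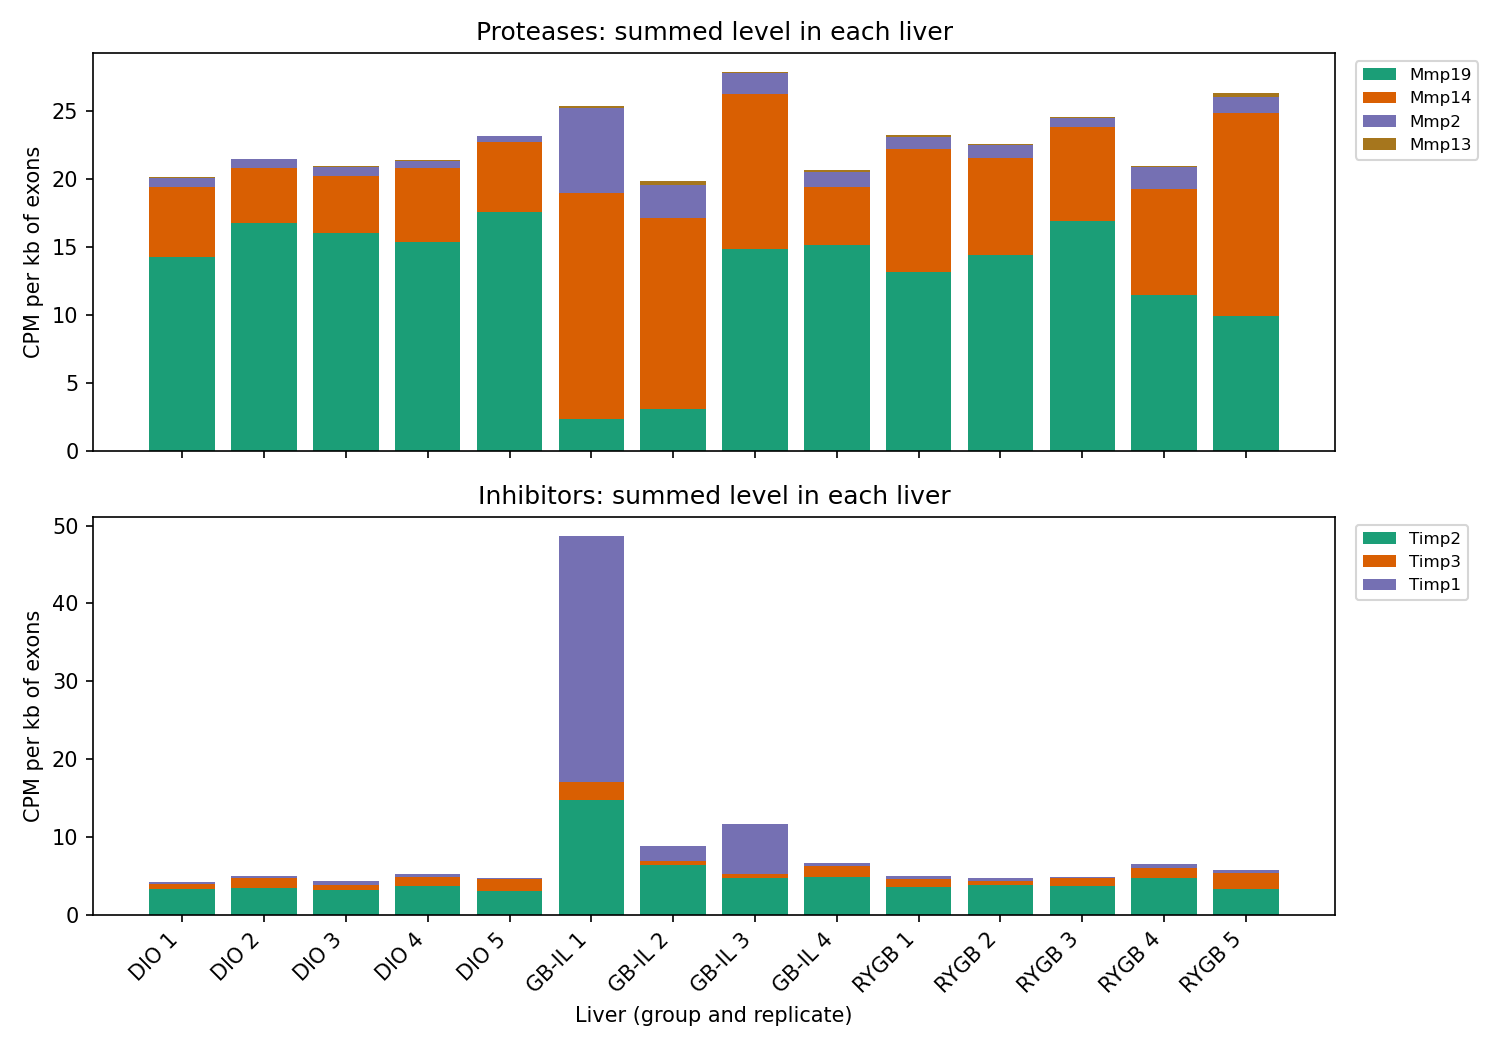
Summed level per length (vertical axes, CPM per kb of exons) of the 4 proteases (upper panel) and the 3 inhibitors (lower panel) in each of the 14 livers, with each gene as a coloured part of the bar. *Mmp19* is the larger part of the protease bar in every DIO liver while *Mmp14* is the larger part in GB-IL livers 1 and 2, and the inhibitor bar of GB-IL liver 1 reaches 48.7 CPM per kb.

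Across the 14 livers *Mmp2* and *Timp2* varied together, with a Pearson correlation of log2 CPM of 0.925 and a Spearman correlation of 0.771. The Pearson value was 0.708 over the 10 DIO and RYGB livers and 0.766 without the 2 livers farthest from the median of *Mmp2*. *Mmp19* ran against both *Mmp2* (Pearson -0.876, Spearman -0.811, and -0.832 by Pearson over the 10 livers) and *Mmp14* (Pearson -0.747, Spearman -0.802, and -0.834 over the 10 livers). Without the 2 livers farthest from the median the Pearson value was -0.668 with *Mmp2* and -0.679 with *Mmp14*. Of the 28 pairs among the 8 tested genes, those with *Timp3* had Pearson correlations of at most 0.367 over the 14 livers, with a highest Spearman correlation of 0.446 (*Loxl2*). *Timp3* and *Mmp14* had a Pearson correlation of 0.105 over the 14 livers, 0.430 over the 10 DIO and RYGB livers and -0.528 without the 2 livers farthest from the median. These are descriptions over 14 livers of 3 groups that share the same DIO controls, and no p is given.

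The genes whose log2 CPM followed each called gene most closely over the 14 livers, out of all genes tested, were as follows. For *Mmp14* they were *Fabp5* (r = 0.940), *Ppp3cc* (r = 0.939) and *Cerk* (r = 0.939), with Spearman 0.952, 0.925 and 0.912, Pearson 0.915, 0.874 and 0.943 over the 10 DIO and RYGB livers and 0.909, 0.905 and 0.903 without the 2 livers farthest from the median. *Fabp5*, a fatty acid binding protein, averaged 3.35 CPM in DIO, 32.2 in GB-IL and 22.1 in RYGB. For *Mmp2* they were *Rab11fip5* (r = 0.954), *Boc* (r = 0.953) and *Hnrnpa1* (r = 0.953), with Spearman 0.925, 0.899 and 0.916, Pearson 0.873, 0.810 and 0.828 over the 10 DIO and RYGB livers and 0.876, 0.837 and 0.850 without the 2 livers farthest from the median. For *Lox* they were *Fbn1* (r = 0.950), *Emp1* (r = 0.934) and *C7* (r = 0.930), with Spearman 0.943, 0.947 and 0.846, Pearson 0.889, 0.880 and 0.901 over the 10 DIO and RYGB livers and 0.918, 0.920 and 0.845 without the 2 livers farthest from the median. *Fbn1* encodes fibrillin, a scaffold of elastic fibres, and averaged 2.37 CPM in DIO, 5.91 in GB-IL and 3.83 in RYGB. For *Timp2* they were *Mios* (r = 0.941), *Rab11fip5* (r = 0.936) and *Chic2* (r = 0.935), with Spearman 0.776, 0.767 and 0.604, Pearson 0.669, 0.598 and 0.0479 over the 10 DIO and RYGB livers and 0.650, 0.626 and 0.369 without the 2 livers farthest from the median. The likeness of *Chic2* to *Timp2* thus rested on the GB-IL livers.

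Of the 17 other *Mmp* genes in the table, 9 were tested. Past the FDR, GB-IL had 4 higher than DIO and 0 lower, against 3.15% of all genes tested that were higher (median log2 fold change of the 9 1.81, and 0.04 for all genes). They were *Mmp7* (matrilysin, made by epithelia), *Mmp8* (the collagenase of neutrophils), *Mmp9* (gelatinase B, from neutrophils and macrophages) and *Mmp12* (the elastase of macrophages). *Mmp7* had 43.5, 245, 4.37 and 0.111 CPM in GB-IL livers 1 to 4 and 0.105, 0.148, 0.153, 0.283 and 0.385 CPM in DIO, a log2 fold change of 8.37 (SE 1.57, adjusted p = 0.0278 by the quasi-likelihood test of edgeR, Benjamini-Hochberg adjusted). *Mmp9* had 10.9, 14.01, 7.63 and 0.553 CPM in GB-IL and 0.890, 1.43, 0.712, 0.849 and 0.625 CPM in DIO, and *Mmp8* had 2.31, 3.16, 8.14 and 0 CPM in GB-IL and at most 0.197 CPM in DIO. For each of these 3 genes GB-IL livers 1, 2 and 3 were above every DIO liver and GB-IL liver 4 was not. *Mmp12* had 23.8, 16.9, 5.34 and 2.32 CPM in GB-IL against 1.57, 1.72, 1.63, 1.53 and 1.44 CPM in DIO and was above every DIO liver in all 4. The log2 fold changes of *Mmp8* and *Mmp9* were 5.28 and 3.19 (adjusted p = 0.0427 and 0.0310 by the same edgeR test). All 4 calls were lost on omission of GB-IL liver 1, of GB-IL liver 2 or of a DIO liver (1 to 5) (highest adjusted p 0.104, 0.117, 0.0959 and 0.0942 over all alternatives), and that of *Mmp8* also without GB-IL liver 3 (0.0723), RYGB liver 1 (0.0530), RYGB liver 3 (0.0532) or RYGB liver 4 (0.0558), while it was not tested without RYGB liver 5. No DIO liver reached the level the filter asks for in *Mmp7* or *Mmp8*, which passed it through 3 GB-IL livers and 2 (*Mmp7*) or 1 (*Mmp8*) RYGB livers, and thus through the livers where they were high. The log2 fold change of *Mmp7* was 6.17 without GB-IL liver 2 and that of *Mmp8* 4.37 without GB-IL liver 3.

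*Mmp15*, a second membrane-anchored protease (MT2-MMP), differed in the other direction from *Mmp14* without passing the FDR. It had 2.36, 6.66, 32.1 and 27.8 CPM in GB-IL and 32.8, 37.0, 48.0, 46.0 and 39.7 CPM in DIO, with all 4 GB-IL livers below every DIO liver, and a log2 fold change of -1.24 (SE 0.53, adjusted p = 0.181 by the quasi-likelihood test of edgeR, Benjamini-Hochberg adjusted). The remaining tested genes *Mmp11*, *Mmp17*, *Mmp23* and *Mmp27* had log2 fold changes of 1.81, 0.23, 0.87 and 0.68, none past the FDR. Of the related lysyl oxidases, *Loxl3* changed by 0.56 on the log2 scale in GB-IL (adjusted p = 0.225 by the edgeR test, Benjamini-Hochberg adjusted). *Loxl4* had 0.820, 4.44, 7.85, 3.39 and 3.15 CPM in RYGB against 1.73, 1.03, 0.611, 0.622 and 0.817 CPM in DIO, a log2 fold change of 2.03 in RYGB (adjusted p = 0.348) and of -0.63 in GB-IL (adjusted p = 0.526), or -1.33 in GB-IL without GB-IL liver 4. *Timp4*, named after its values were seen, had too few counts to be tested, with 0 counts in all 5 DIO livers and 1.26, 9.21, 0.254 and 0.111 CPM in GB-IL livers 1 to 4. In RYGB against DIO 0 of the 9 other *Mmp* genes passed the FDR by edgeR, and 0 had an unadjusted p below 0.05.

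Other genes of matrix turnover were read from lists, beside 3.15% of all genes tested that rose past the FDR in GB-IL. Of 16 tested Adam and Adamts proteases 2 were higher and 0 lower in GB-IL than in DIO (median log2 fold change 0.47). *Adam8*, a protease of leukocytes, had 42.1, 19.4, 3.05 and 0.443 CPM in GB-IL and 0.408 CPM on average in DIO (log2 fold change 5.29, adjusted p = 0.0278 by the quasi-likelihood test of edgeR, Benjamini-Hochberg adjusted). *Adamts15*, an aggrecanase, had 21.9, 3.67, 1.53 and 1.33 CPM in GB-IL and 1.17 CPM in DIO (log2 fold change 2.597, adjusted p = 0.0437). Without GB-IL liver 1 the log2 fold change was 4.20 for *Adam8* and 0.88 for *Adamts15*. *Adam9*, the most abundant of the list, changed by -0.53 on the log2 scale (adjusted p = 0.251). As for every gene in this comparison, both calls were lost on omission of GB-IL liver 1, of GB-IL liver 2 or of a DIO liver (1 to 5). That of *Adamts15* was also lost without RYGB liver 1, 2, 3, 4 or 5 (0.0579, 0.0616, 0.0597, 0.0601 and 0.0524).

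Among 8 tested cytokines and growth factors that induce these genes, 1 was higher and 0 lower in GB-IL (median log2 fold change 1.15). Of the 8, *Tgfb2* passed the filter on low counts through 3 GB-IL and 4 RYGB livers and no DIO liver, and thus through the groups where it was higher. *Il1b* had 13.9, 19.9, 12.0 and 3.06 CPM in GB-IL livers 1 to 4 and 1.47, 2.85, 2.85, 1.58 and 1.68 CPM in DIO (log2 fold change 2.54, adjusted p = 0.0278 by the quasi-likelihood test of edgeR, Benjamini-Hochberg adjusted). *Tgfb3* and *Ctgf*, the latter highest of the list in mean CPM over the 14 livers though not in DIO, had log2 fold changes of 1.48 (adjusted p = 0.0571) and 1.56 (adjusted p = 0.211). Omission of GB-IL liver 1 put *Tgfb3* at 0.93 and omission of GB-IL liver 2 put *Ctgf* at 0.99. Of the 6 tested subunits of AP-1, a transcription factor whose binding sites are known from promoters of this family, 1 was higher past the FDR and all 6 were higher at an unadjusted p below 0.05, against 16.7% of all genes tested (median 1.80, and 0.04 for all genes tested). *Atf3* had 10.6, 6.38, 2.50 and 1.62 CPM in GB-IL, 0.942, 1.13, 1.02, 0.396 and 0.673 CPM in DIO and 2.73, 2.27, 2.22, 1.16 and 9.0002 CPM in RYGB, and it changed by 2.65 on the log2 scale in GB-IL (adjusted p = 0.0365) and 2.06 in RYGB (adjusted p = 0.383). Without GB-IL liver 1 the log2 fold change of *Atf3* in GB-IL was 2.05, and without RYGB liver 5 that in RYGB was 1.33. GB-IL livers 1 and 2 lay above every DIO liver for all 6 subunits, GB-IL liver 3 for 3 and GB-IL liver 4 for 2. *Jund*, the most abundant subunit, had 206, 162, 31.7 and 32.4 CPM in GB-IL and 21.8 to 39.5 CPM in DIO, with GB-IL livers 3 and 4 inside the DIO range, and changed by 1.72 on the log2 scale in GB-IL (adjusted p = 0.0589). The calls of *Il1b* and *Atf3* were lost on omission of GB-IL liver 1, of GB-IL liver 2 or of a DIO liver (1 to 5) (adjusted p 0.0581 to 0.0942 and 0.0793 to 0.132).

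The substrates themselves did not pass the FDR. Of 19 tested collagens and other matrix proteins, 0 were called in GB-IL, although all 19 had a positive log2 fold change and 11 an unadjusted p below 0.05, against 16.7% of all genes tested that were higher at that p (median 0.92, and 0.04 for all genes). In RYGB 0 were called, all 19 were again positive and 11 had an unadjusted p below 0.05, against 5.35% of all genes tested (median 0.70, and 0.01 for all genes). RYGB liver 5 was the highest of its group for 17 of the 19, and without it 4 had an unadjusted p below 0.05, against 441 of 14126 genes (median 0.54, with all 19 positive). *Fbn1* and *Lum* had the smallest p in GB-IL, with log2 fold changes of 1.32 (adjusted p = 0.0501 by the quasi-likelihood test of edgeR, Benjamini-Hochberg adjusted) and 1.04 (adjusted p = 0.0544). *Fn1*, which encodes fibronectin and was the most abundant, changed by 0.33 on the log2 scale (adjusted p = 0.424). Of 13 tested genes of cross-linking and collagen processing 0 were called in GB-IL (1 higher at an unadjusted p below 0.05, against 16.7% of all genes tested, median 0.29). *Pcolce*, *Efemp2* and the gene of that list highest in mean CPM over the 14 livers, the transglutaminase *Tgm2*, had log2 fold changes of 0.69, 0.55 and 1.04 (adjusted p = 0.169, 0.226 and 0.234). Without GB-IL liver 1 the log2 fold change was 0.87 for *Fbn1* and 0.51 for *Tgm2*.

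Markers of the cells that are known to make these proteins moved with them in part. The 8 markers of monocytes and recruited macrophages, with *Lyz2* highest in mean CPM, summed to 520.0, 582, 631 and 149 CPM in GB-IL livers 1 to 4. Their sum was 83.2, 124, 123, 70.2 and 63.9 CPM in DIO and 182, 80.5, 107, 77.9 and 119.6 CPM in RYGB. In GB-IL 5 of the 8 tested passed the FDR, all higher, against 3.15% of all genes tested that were higher. No marker was at 0 in any liver. The 7 neutrophil markers, with *S100a9* highest in mean CPM, summed to 116, 52.0, 308 and 6.46 CPM in GB-IL, 8.43, 10.3, 6.16, 6.45 and 5.43 CPM in DIO and 12.5, 7.25, 7.60, 9.89 and 81.9 CPM in RYGB. Of the 5 tested, 4 were higher past the FDR in GB-IL, against 3.15% of all genes tested. *Ly6g* had 0 counts in all 5 DIO livers, 1 GB-IL liver and 3 RYGB livers, *Mpo* in 3 livers and *Retnlg* in 1. The GB-IL livers 1, 2 and 3 that were high in *Mmp14* and *Timp1* were also high in markers of monocytes, macrophages and neutrophils, and RYGB liver 5, the highest of its group in *Mmp14*, was the highest of its group in neutrophil markers. Its neutrophil sum exceeded that of GB-IL liver 2, its *Timp1* (0.381 CPM) lay within the DIO range, and RYGB liver 1 had the highest monocyte and macrophage sum of the group. GB-IL liver 4 had a monocyte and macrophage sum above every DIO liver, with *Mmp14* inside the DIO range. RYGB livers 2, 3 and 4 exceeded every DIO liver in *Mmp14*, with their monocyte and macrophage sums and their neutrophil sums inside the DIO ranges. The 8 Kupffer cell markers, with *Cd5l* highest in mean CPM, summed to 594, 1026, 1951 and 798 CPM in GB-IL, 461, 556, 725, 459 and 399 CPM in DIO and 1016, 409, 497, 386 and 641 CPM in RYGB. Of these 8, 2 were higher past the FDR in GB-IL, against 3.15% of all genes tested. The 6 lymphocyte markers, with *Cd4* highest in mean CPM, summed to 1.21, 1.64, 11.7 and 3.43 CPM in GB-IL, 5.60, 9.55, 4.53, 4.64 and 3.80 CPM in DIO and 5.52, 6.12, 4.72, 4.88 and 1.80 CPM in RYGB, so that GB-IL livers 1, 2 and 4 lay below every DIO liver. Of the 4 tested 0 passed the FDR, and *Cd8a* and *Ms4a1* had 0 counts in 2 GB-IL livers. The part of leukocytes in these levels was not tested.

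The 8 stellate cell markers, with *Rgs5* highest in mean CPM over the 14 livers, summed to 391, 162, 107 and 176 CPM in GB-IL livers 1 to 4, 186, 161, 145, 169 and 150.2 CPM in DIO and 203, 211, 197, 206 and 350.5 CPM in RYGB. In GB-IL 1 of the 8, *Des*, was higher past the FDR, against 3.15% of all genes tested. It had 243, 12.7, 5.90 and 4.43 CPM in GB-IL against 4.34, 3.35, 4.88, 5.26 and 4.13 CPM in DIO. *Des* is also a muscle gene, and its log2 fold change of 3.92 (adjusted p = 0.0363 by the quasi-likelihood test of edgeR, Benjamini-Hochberg adjusted) was 0.79 without GB-IL liver 1 (adjusted p = 0.234). It was not called without DIO liver 1, 2, 3, 4 or 5, GB-IL liver 1 or 2 (0.0581 to 0.234), nor without RYGB liver 3 or 4 (0.0509 and 0.0502). The 6 myofibroblast markers, with *Postn* highest in mean CPM over the 14 livers and *Pdgfra* highest in GB-IL liver 1 (39.8 CPM against 4.25 CPM of *Postn*), summed to 83.2, 30.2, 28.8 and 44.6 CPM in GB-IL, 33.4, 22.3, 43.9, 32.9 and 24.8 CPM in DIO and 47.4, 28.2, 35.1, 39.5 and 143 CPM in RYGB, with 0 of 5 tested past the FDR. For the 6 portal fibroblast markers, with *Fbln2* highest in mean CPM, the sums were 40.5, 11.9, 19.9 and 22.1 CPM, 12.8, 7.97, 16.2, 10.2 and 8.03 CPM and 16.7, 9.91, 10.1, 13.5 and 12.8 CPM in the same order, again with 0 of 5 past the FDR. *Clec3b* of this list had 0 counts in 3 DIO livers and *Cnn1* of the myofibroblast list in 1 DIO and 1 RYGB liver. *Des* alone made up 243 of the 391 CPM of the stellate cell sum in GB-IL liver 1. That liver, highest in *Timp2*, *Mmp2* and *Lox*, was the highest of its group in the myofibroblast and portal fibroblast sums, and RYGB liver 5 was the highest of its group in stellate cell and myofibroblast markers, with *Postn* as 117 of the 143 CPM of the latter. *Postn* itself had 4.25, 2.20, 5.64 and 14.9 CPM in GB-IL livers 1 to 4 and 8.17 to 14.7 CPM in DIO. GB-IL livers 1, 2 and 3 thus lay below every DIO liver in *Postn*, against the direction of the myofibroblast sum of GB-IL liver 1. In RYGB 2 of the 5 myofibroblast markers tested had a positive log2 fold change (median -0.02). Their part in the result was not tested.

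Of 4 cholangiocyte markers tested, *Krt7* and *Krt19* were higher past the FDR in GB-IL, against 3.15% of all genes tested. GB-IL livers 1 to 4 had 4.47, 12.3, 2.08 and 0.812 CPM of *Krt7* and 11.1, 13.7, 3.39 and 1.81 CPM of *Krt19*. In DIO *Krt7* had 0.576, 0.935, 0.916, 1.36 and 0.721 CPM and *Krt19* 1.05, 1.13, 0.967, 1.41 and 0.433 CPM, and in RYGB 0.984, 1.33, 0.422, 0.662 and 1.14 CPM and 1.31, 1.13, 0.951, 1.12 and 1.59 CPM. *Sox9*, highest in mean CPM of the 4, changed by 0.60 on the log2 scale (adjusted p = 0.329). The log2 fold change of *Krt7* was 2.43, and 1.42 without GB-IL liver 2. *Krt7* was not called without RYGB liver 1, 2, 3 or 4 (adjusted p 0.0552, 0.0531, 0.0509 and 0.0559 by the edgeR test, Benjamini-Hochberg adjusted). The 5 mesothelial markers, with *Msln* highest in mean CPM, summed to 30.1, 4.97, 19.7 and 10.5 CPM, 3.66, 11.1, 2.70, 6.73 and 3.27 CPM and 3.50, 9.86, 2.08, 8.89 and 5.40 CPM in GB-IL, DIO and RYGB, with 0 of 5 past the FDR. The 4 vascular endothelial markers, with *Pecam1* highest in mean CPM, summed to 125, 49.5, 76.5 and 68.2 CPM, 54.3, 50.7, 55.6, 53.4 and 54.8 CPM and 114, 45.1, 67.2, 65.1 and 232 CPM. In GB-IL 1 of the 4, *Cd34*, was higher past the FDR (log2 fold change 2.47, and 1.65 without GB-IL liver 1), against 3.15% of all genes tested. The 6 hepatocyte markers, with *Alb* as the most abundant, summed to 93443, 113376, 88054 and 120031 CPM in GB-IL livers 1 to 4, 133483, 118285, 128271, 147555 and 131032 CPM in DIO and 131916, 113909, 120271, 119183 and 133160.5 CPM in RYGB, and had 0 higher and 0 lower past the FDR. What part these cell types had in the levels of the matrix genes was not tested.

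RefSeq windows from 250 bases before to 50 bases after the gene start (GRCm38.p6) were at hand for 5 of the 10 genes, and of these *Mmp14* and *Timp2* had passed the FDR in GB-IL. They were searched on both strands for TGANTCA, the AP-1 motif, for GGGCGG, the GC box, and for TATAAA, the TATA box. Of 32851 promoters of this length, 7.81% held the AP-1 motif, 35.7% the GC box and 13.6% the TATA box. The window of *Mmp14* (chr14:54431348-54431647, plus strand) held 2 GC boxes and that of *Timp2* (chr11:118355362-118355661, minus strand) 1, and neither held an AP-1 motif or a TATA box. *Mmp13* held both of these and no GC box. GC boxes were also found in *Timp3* (2) and *Timp1* (1), which makes 4 of the 5 windows. The windows follow RefSeq starts, and that of *Timp2* lies wholly inside the gene as GENCODE places it, with no base before the GENCODE start at 118355740. The windows of *Mmp14* and *Timp2* are shown as those of the genes that rose, with the GC boxes in capitals, and a match is a description of the sequence only.
Mmp14: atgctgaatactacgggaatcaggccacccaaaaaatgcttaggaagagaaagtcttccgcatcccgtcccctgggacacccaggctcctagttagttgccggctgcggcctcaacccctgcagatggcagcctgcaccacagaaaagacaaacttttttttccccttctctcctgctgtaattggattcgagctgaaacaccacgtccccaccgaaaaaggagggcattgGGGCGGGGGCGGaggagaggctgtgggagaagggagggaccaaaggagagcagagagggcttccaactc
Timp2: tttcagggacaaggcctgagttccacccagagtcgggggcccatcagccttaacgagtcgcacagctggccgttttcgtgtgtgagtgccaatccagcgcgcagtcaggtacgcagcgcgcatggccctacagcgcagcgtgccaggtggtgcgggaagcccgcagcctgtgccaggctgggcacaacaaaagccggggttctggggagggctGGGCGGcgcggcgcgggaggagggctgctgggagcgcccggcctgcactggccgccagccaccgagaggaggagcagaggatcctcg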

How the data were processed

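The deposited values are whole read counts per gene, which the authors obtained by aligning the reads to mm10 with TopHat2 and counting with HTSeq (submitters' processing notes). Versions were not given in the sources used here, nor were annotation and strand setting. The counts were used without change by edgeR 4.0.16, DESeq2 1.42.0 and limma 3.58.1 (R 4.3.3). Tables and figures were made by pandas 2.3.3, numpy 2.4.6, matplotlib 3.10.9 and scipy 1.17.1 (Python 3.11.15). Genes were kept by filterByExpr by group, scaled by TMM and fitted with glmQLFit as a mean per group over all 14 livers. Benjamini-Hochberg adjustment covered all genes tested. The fit was tested on simulated data with known changes, drawn with the same spread in every group. Such data do not show how the fit behaves where GB-IL livers vary more than DIO livers. Members that were not kept had exact permutation tests of mean CPM, for which 4 livers against 5 allow no p below 0.0159. Correlations used log2 CPM with a prior count of 2. Positions and exon lengths are from GENCODE M21 (GRCm38), promoters from RefSeq.

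The members and lists were chosen with earlier results of these data known. Named were all members, every other tested *Mmp*, *Timp* and *Lox* gene, in each related list the 2 genes with the smallest p in GB-IL against DIO and the most abundant one, of the marker lists discussed the most abundant gene and the markers at 0, and for each called member the 3 genes with the highest correlation. Other genes are named only to spell out a small count or the way a gene passed the filter, and some results that this rule covers are left out. As alternatives, DESeq2 and voom with sample quality weights replaced the test, scaling was by upper quartile or RLE, estimation was robust, the filter was dropped or raised to a mean of 50 counts, the third group was left out, replicate number was a block, and single livers were omitted. Livers are separate animals by their labels. The edgeR p-values set differences of group means against a spread between livers that was estimated over all 3 groups together.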

Additional observations from a re-analysis of the deposited data

Results flagged for a closer look

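In 6 of the 30 groups of livers examined (10 genes in 3 groups), 1 liver lay apart from the others of its group by more than its group's spread would usually give. Chance alone would mark about 1 in 20 groups if these were independent. The 10 genes were measured in the same livers, and all 6 cases lie in GB-IL liver 1 or RYGB liver 5, so no excess over chance can be read from them. In GB-IL the liver apart was liver 1, with 57.4 CPM of *Timp2* against at most 25.0 CPM in the other livers of its group, and with 5.25 CPM of *Lox* against at most 1.03 CPM. In RYGB it was liver 5 for 4 genes. It had 89.0 CPM of *Mmp14*, where the next RYGB liver had 53.8 CPM. For *Mmp13* it had 0.796 CPM and the next liver 0.273 CPM. *Lox* measured 1.52 CPM in it, against at most 0.538 CPM in the rest. *Loxl2* measured 5.16 CPM, against at most 1.24 CPM. No DIO liver stood apart in this way for any of the 10 genes.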

How the results depend on the processing

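In GB-IL against DIO, 465 genes and 4 members passed the FDR. DESeq2 called 1347 genes and 6 members, voom with sample quality weights 589 genes and 2 members (*Mmp2* and *Lox*), and a fit without the third group 0 and 0. With 1 liver left out, the number ranged over 0 to 3572 genes and 0 to 6 members, and with 1 RYGB liver left out the lowest were 294 genes and 2 members. In RYGB against DIO, where 0 were called, DESeq2 called 94 genes and 0 members, voom 1690 genes and 4 members, a fit without the third group 33 genes and 0 members, and leaving out 1 liver 0 to 5 genes. In GB-IL against RYGB, also with 0, DESeq2 called 884 genes and 3 members, voom 115 genes and 0 members, no filter 51 genes and 1 member (*Timp1*), and leaving out 1 liver 0 to 3120 genes and 0 to 3 members. RLE or upper quartile scaling and robust estimation left the 4 members called in GB-IL against DIO, and with a mean of at least 50 counts *Lox* was not tested and *Timp1*, let through by its counts in GB-IL, was called.

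With the replicate number as a block, 1 gene and 0 members passed in GB-IL against DIO, and 0 genes in the other comparisons. Deviations of livers with the same number had correlations of -0.381 to 0.0209 in the comparisons with DIO. Between GB-IL and RYGB these were 0.0190, 0.00778, 0.146 and 0.381 for numbers 1 to 4. The numbers were not taken as pairs, and the block is given as an alternative only.

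Of the single log2 fold changes of the 8 tested members under all alternatives, 479 kept their direction and side of the threshold, 44 lost a call, 10 gained one and 8 changed sign, all of *Timp3* without a call. Its log2 fold change was -0.60 with voom and -0.29 without GB-IL liver 1 in GB-IL against DIO, with -0.29 to 0.51 over all omissions. In RYGB against DIO it was -0.20 with voom and -0.11 without RYGB liver 5, with -0.11 to 0.38 over all omissions. In GB-IL against RYGB it was -0.40 with voom, -0.48 without GB-IL liver 1, -0.07 without GB-IL liver 4 and -0.13 without RYGB liver 2, with -0.48 to 0.36 over all omissions. The difference in mean CPM ranged over 0.203 to 0.405 for *Mmp13* and 2.25 to 11.5 for *Timp1* in GB-IL against DIO, and over 2.23 to 11.5 for *Timp1* in GB-IL against RYGB, with 1 liver left out. For *Timp1* in RYGB against DIO it was 0.0219 with all livers, -7.79e-04 without RYGB liver 4 and -0.0172 without DIO liver 5, and over all omissions it ranged from -0.0172 to 0.0674. With the longest transcript in place of all exons, *Mmp14* had 8.84, 21.3 and 16.9 CPM per kb in DIO, GB-IL and RYGB, and *Timp3* 1.76 in DIO and 1.99 in RYGB. Fewer livers in a fit leave fewer degrees of freedom. Apart from that, the cause of these changes was not tested. Counts of *Mmp13* (1 to 23 per liver) and of *Lox* in DIO (0 to 8) limit what depth can show.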

Other observations

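*Adamts4*, an aggrecanase that was picked out after its values were seen, had 1.37, 0.641, 0.704, 1.08 and 6.02 CPM in RYGB and 0.314, 0.0984, 0.254, 0.170 and 0.0481 CPM in DIO, with all 5 RYGB livers above every DIO liver, and a log2 fold change of 3.45 in RYGB (adjusted p = 0.331 by the quasi-likelihood test of edgeR, Benjamini-Hochberg adjusted). Without RYGB liver 5 the log2 fold change was 2.39. *Adamts4* passed the filter on low counts through 5 RYGB livers and 1 GB-IL liver and no DIO liver, and thus through the group where it was high.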
